A study of Mus musculus with 16 samples.

Results

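The comparison described here is the effect of 1 day of exposure to Mycobacterium abscessus on gene expression in MPI-2 cells, and it uses 8 of the 16 RNA-seq libraries of the series. MPI-2 is a mouse line of alveolar-like macrophages, wild type by its label, kept in RPMI medium with GM-CSF at 0.6 µg per mL and with penicillin and streptomycin, and used between passages 8 and 50. 4 libraries came from cells exposed to the bacterium and sampled at day 1, and 4 from uninfected cells sampled at the same day, and the same culture conditions, GM-CSF included, are given for both. The other 8 libraries are the same pair of groups at day 5, and serve here only where the day 1 effect is set against the later one. The title of the series places the experiment in a study of senescence during chronic intracellular infection.

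Replicates were labelled as biological and numbered 1 to 4, and all came from a single cell line. Nothing in the labels says that they were separate cultures, so p-values measure only the spread between these samples, which may be technical. Bacterial strain, dose, the share of cells that took up bacteria and the passage of each culture are not given in the sources used here. In such bulk libraries a change in a few cells and a smaller change in all cells cannot be told apart, nor can fewer cells of a type and less RNA per cell.

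Mycobacterium abscessus is a rapidly growing nontuberculous mycobacterium that macrophages engulf and that can survive inside them. Macrophages sense mycobacteria by surface receptors for lipids and lipoproteins, such as Mincle (Clec4e) and Tlr2, which act through NF-kB and AP-1, and by cytosolic sensors of nucleic acids, which switch on type I interferon genes. Secreted interferon acts back on the cells through Jak kinases and a complex that includes Stat2 and Irf9 and binds a sequence called the interferon-stimulated response element in the promoters of many defence genes. Alveolar macrophages live in the air spaces of the lung, depend on GM-CSF and the lipid regulator Pparg, and renew themselves by division.

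Of 24 alveolar macrophage markers listed, 23 were measured well enough to be tested. Chil3, a secreted chitinase-like protein, Marco, a scavenger receptor, Lpl, lipoprotein lipase, and Car4, a carbonic anhydrase, were present in every library, Chil3 with at least 4569 CPM (counts per 1000000). Siglecf, the surface lectin often used to sort these cells, was low, with 4.37 to 6.69 CPM. Ear10 had 8 counts in the exposed libraries together and 11 in the uninfected ones.

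Total counts lay between 46154875 and 81995629 per library. The first principal component held 62.2% of the variance and separated the groups, with exposed libraries between -49.6 and -32.0 and uninfected ones between 35.0 and 39.4. Exposed replicate 4, the shallowest library, stood apart on the second component (10.4% of the variance) at -33.7, against 11.8 to 16.1 for the other exposed libraries, and its median absolute deviation from its group mean was 0.142 on the log2 scale against 0.0692 to 0.0761 in those libraries. The median SD of log2 CPM between replicates was 0.132 in exposed and 0.104 in uninfected cells.

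Exposure changed a large share of the expressed genes, most of them by little. Of 15858 genes tested, 3650 (23%) were called higher and 3371 (21.3%) lower in exposed cells at an adjusted p under 0.05 (quasi-likelihood test in edgeR, Benjamini-Hochberg adjustment). For 6584 genes (41.5%) the exposed and uninfected libraries did not overlap. Changes of at least 2-fold were far less even between directions, with 767 genes higher (4.84%) and 105 lower (0.662%). Among all called genes 87.6% changed by less than 2-fold, and their median absolute log2 fold change was 0.37. Over all genes tested the median log2 fold change was 0.02. The plot of change against level shows this asymmetry. Gene lists are described in the same terms, as the number of tested members called in each direction, to be read against these shares of all genes.

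**Figure D1:**
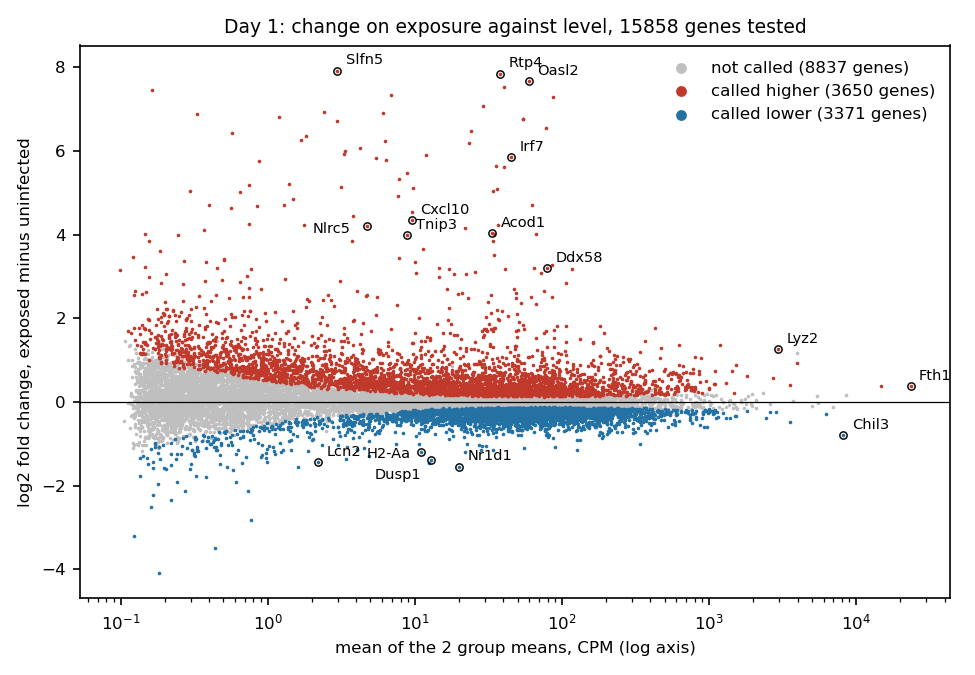
Each point is 1 of 15858 genes, with the mean of the group means in CPM on a log axis and the log2 fold change of exposed over uninfected cells on the vertical axis. Red points were called higher (3650) and blue points lower (3371). Changes above 2 on the log2 scale are almost all upward, and Slfn5, Rtp4 and Oasl2 lie at the top near 8.

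The genes with the largest rise included many targets of interferon. Rtp4, a transmembrane protein of the interferon response, had 79.2, 87.4, 62 and 75.9 CPM in the 4 exposed libraries and 0.320, 0.381, 0.278 and 0.314 CPM in the uninfected ones. Its log2 fold change was 7.85 ± 0.14 (SE, n = 4 per group; edgeR adjusted p = 4.81e-16). Slfn5, a Schlafen protein, went from at most 0.0513 CPM, with 0 in uninfected replicate 3, to 6.06, 7.67, 4.45 and 5.52 CPM, a log2 fold change of 7.92 ± 0.33 (SE, n = 4 per group; edgeR adjusted p = 5.3e-12). In both genes, as in Oasl2 with 123, 126, 82.7 and 144 CPM, exposed replicate 3 was the lowest of the exposed libraries, and no exposed library came near the uninfected range. Oasl2, a 2'-5' oligoadenylate synthetase-like protein, had 0.974, 0.343, 0.370 and 0.590 CPM in uninfected cells and a log2 fold change of 7.67 ± 0.30 (SE, n = 4 per group; edgeR adjusted p = 1.48e-07).

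Because genes with this response share a promoter element, the 250 bases before the transcription start were searched for it. The windows are those of RefSeq on GRCm38.p6, an older assembly than the one used for the counts, and they matched 10510 of the tested genes with 13391 windows. The pattern searched on both strands was GAAA, then any 2 bases, then GAAA again, a core of the interferon-stimulated response element. It occurred in 374 of 13391 windows (2.79%), in 69 of the 551 windows of genes at least 2-fold higher (12.5%) and in 1 of the 69 windows of genes at least 2-fold lower (1.45%). Among the interferon-stimulated effectors listed for this work, 17 of 45 windows held it (37.8%), and outside the interferon lists 42 of 483 windows of genes at least 2-fold higher did (8.7%). A match is a description of the letters and not evidence of binding.

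Shown here are windows of 7 genes that rose and hold the pattern, in capitals, each read 5' to 3' on the strand of its gene. They end just before the start of transcription. Capitals reading TTTC mark a match on the opposite strand. Slfn5 lies at chr11:82951932-82952101 on the plus strand, Rsad2 at chr12:26456453-26456622 on the minus strand, Ifit1 at chr19:34640719-34640888 and Ifit3 at chr19:34583359-34583528 on the plus strand, Isg15 at chr4:156200819-156200988, Oas3 at chr5:120777660-120777829 and Cxcl10 at chr5:92348890-92349119 on the minus strand.
Slfn5: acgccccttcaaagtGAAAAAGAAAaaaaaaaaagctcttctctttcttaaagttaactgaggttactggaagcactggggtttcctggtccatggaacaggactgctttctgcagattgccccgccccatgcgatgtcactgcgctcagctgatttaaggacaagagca
Rsad2: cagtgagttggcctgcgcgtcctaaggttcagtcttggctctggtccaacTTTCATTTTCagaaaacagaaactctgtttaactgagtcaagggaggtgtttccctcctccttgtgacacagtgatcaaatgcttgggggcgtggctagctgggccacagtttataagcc
Ifit1: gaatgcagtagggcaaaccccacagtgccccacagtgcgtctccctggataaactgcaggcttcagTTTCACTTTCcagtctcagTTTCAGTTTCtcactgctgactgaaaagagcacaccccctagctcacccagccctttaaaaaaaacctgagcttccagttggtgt
Ifit3: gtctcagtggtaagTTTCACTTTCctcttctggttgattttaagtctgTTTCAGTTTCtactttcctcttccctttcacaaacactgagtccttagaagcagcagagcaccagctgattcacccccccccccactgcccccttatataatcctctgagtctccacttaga
Isg15: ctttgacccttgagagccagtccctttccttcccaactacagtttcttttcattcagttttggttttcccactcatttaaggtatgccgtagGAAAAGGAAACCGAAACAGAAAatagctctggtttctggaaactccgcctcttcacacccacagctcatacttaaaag
Oas3: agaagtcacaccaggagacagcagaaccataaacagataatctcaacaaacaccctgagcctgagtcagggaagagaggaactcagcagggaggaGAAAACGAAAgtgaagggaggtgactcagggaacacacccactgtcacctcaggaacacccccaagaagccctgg
Cxcl10: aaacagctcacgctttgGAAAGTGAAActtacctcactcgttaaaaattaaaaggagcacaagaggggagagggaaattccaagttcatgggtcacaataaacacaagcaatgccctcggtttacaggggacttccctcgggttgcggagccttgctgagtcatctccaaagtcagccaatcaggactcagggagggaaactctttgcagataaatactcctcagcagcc

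Ifit1 and Ifit3 each have 2 matches, and in Isg15 3 matches overlap to form a single stretch. Not all strongly raised genes hold the pattern. The corresponding windows of Oasl2 (chr5:114896764-114896933, plus strand) and Xaf1 (chr11:72301459-72301628, plus strand), printed for contrast, have 0 matches in the letters printed.
Oasl2: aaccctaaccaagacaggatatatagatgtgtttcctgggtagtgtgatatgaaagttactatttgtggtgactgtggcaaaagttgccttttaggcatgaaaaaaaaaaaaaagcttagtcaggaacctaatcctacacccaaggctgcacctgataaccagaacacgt
Xaf1: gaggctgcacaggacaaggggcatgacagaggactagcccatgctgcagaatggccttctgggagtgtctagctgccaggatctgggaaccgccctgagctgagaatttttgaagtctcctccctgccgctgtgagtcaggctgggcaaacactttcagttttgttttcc

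Of the other patterns searched on both strands, GGGA followed after any 4 bases by CC, a loose form of the NF-kB site, was found in 22.7% of windows of genes at least 2-fold higher and in 22.1% of all windows. TGANTCA, the AP-1 site, was found in 9.8% of windows of genes at least 2-fold higher, in 11.6% of those at least 2-fold lower and in 4.83% of all. TTCNNNGAA, the STAT dimer site, was found in 8.89% against 5.96% of all, AGGTCA, a nuclear receptor site, in 15.8% against 11.4%, and CACGTG, the E-box of the clock and Myc, in 4.72% against 7.98%.

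The interferon genes themselves gave few reads. None of 21 interferon ligands listed passed the filter on low counts, so none was tested. Ifnb1, the type I interferon usually made first, had 22, 9, 10 and 15 counts in the exposed libraries and 0 in each of the 4 uninfected ones, which is at least 18.4-fold higher against a floor of 3 counts over the group. Ifna4 had 8, 7, 4 and 5 counts against 0, at least 7.88-fold higher. Counts over all 21 ligands came to 57, 36, 23 and 27 in exposed and 4, 15, 9 and 6 in uninfected libraries, so the groups did not overlap. Ifng, the type II interferon made by T and NK cells, had 0 counts in all 8 libraries.

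Of 8 tested interferon receptors and kinases, 5 were called higher and 2 lower, all by less than 2-fold. Leaving out any single library other than exposed replicate 3 lowered the 5 to 3. Ifngr2, a chain of the interferon gamma receptor, rose by 0.55 on the log2 scale, and Ifnar1, a chain of the type I receptor, by 0.25. Jak1, a kinase that both receptors use, fell, with a log2 fold change of -0.26.

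Factors that carry the signal rose more. Among 14 tested STAT and IRF factors 8 were higher and 2 lower. Irf7, which amplifies the type I response, had 96, 99.1, 66.3 and 94.5 CPM in exposed and 1.65, 1.46, 1.67 and 1.37 CPM in uninfected libraries, a log2 fold change of 5.85 ± 0.15 (SE, n = 4 per group; edgeR adjusted p = 1.2e-11). Stat2 and Irf9 of the complex that binds the element also rose, by 2.64 ± 0.16 and 2.49 ± 0.08 on the log2 scale. Irf1 rose by 1.07 and Irf5, which acts downstream of Toll-like receptors, by 0.95. The members that fell were Irf8 and Stat3. Irf8, a factor that shapes mononuclear phagocytes, had 28.1, 27.7, 25.2 and 21.9 CPM against 43.9, 43.2, 43.5 and 40.7 CPM, a log2 fold change of -0.73 ± 0.07 (SE, n = 4 per group; edgeR adjusted p = 2.9e-07), and Stat3 had one of -0.30 ± 0.05.

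Nucleic acid sensors formed part of the rise. Of 22 tested sensors and adaptors, 17 were higher, 11 of them at least 2-fold, and 2 were lower. Ddx58, which encodes the RNA sensor RIG-I, had 147, 150.4, 121 and 157 CPM against 15.9, 16, 15 and 15.9 CPM, a log2 fold change of 3.19 ± 0.08 (SE, n = 4 per group; edgeR adjusted p = 7.03e-15). The related Dhx58 (Lgp2) rose by 3.21 and Ifih1 (Mda5) by 2.19 on the log2 scale. Among proteins linked to DNA sensing, Ifi203 rose by 5.91, Ifi204 by 5.05 and Zbp1 by 2.17. Cgas, which makes the messenger cGAMP, rose by 0.41 and its receptor Tmem173 (Sting) by 0.38. Mavs, the adaptor of the RNA sensors, was not called at -0.10 (adjusted p = 0.0803). The 2 lower members were the endosomal RNA receptors Tlr13 at -0.58 and Tlr8 at -0.41, while the endosomal Tlr3 rose by 0.86.

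The effectors themselves rose almost as a block. Of 48 tested interferon-stimulated effectors 47 were called higher, 44 of them at least 2-fold, and their median log2 fold change was 4.12. Their CPM summed to between 4085 and 5173 in exposed and between 1016 and 1045 in uninfected libraries. The count was also 47 with any 1 library left out, with DESeq2 and in a fit of all 16 libraries. Oas3 and Oas1a, which make the activator of RNase L, had log2 fold changes of 7.28 ± 0.14 and 4.02 ± 0.08. Xaf1 and Ifit1 rose by 6.19 and 6.78, and Mx2, a dynamin-like antiviral GTPase, by 6.73 ± 0.55, with exposed libraries from 2.84 to 9.61 CPM. The member not called was Ifitm2, a membrane protein that blocks viral entry, with 7.80, 7.77, 7.48 and 6.41 CPM against 6.77, 7.99, 7.72 and 7.84 CPM. Its groups overlapped and its log2 fold change was -0.04 ± 0.09. Ifi27 changed least among those called, by 0.48.

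All 15 tested interferon-inducible GTPases, which attack the membranes around intracellular microbes, were higher, 14 of them at least 2-fold, with a median of 2.99. Gbp5 had 8.66, 8.53, 5.36 and 10.9 CPM in exposed cells and at most 0.203 CPM in uninfected cells, and a log2 fold change of 6.08 ± 0.28 (SE, n = 4 per group; edgeR adjusted p = 1.32e-10). Iigp1 rose by 4.70, and Irgm1, a regulator of the family, by 2.60 ± 0.09. Gbp8 rose by 0.91. Outside the lists, Rnf213, a very large ubiquitin ligase, rose by 7.09 and Apol9b, an apolipoprotein L, by 7.34, where reads shared with its close paralog may have been split.

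Inhibitors of cytokine signalling were mixed, with 6 of 17 higher and 4 lower. Socs1, which blocks Jak kinases, was the member that rose at least 2-fold, with 10.8, 10.5, 9.61 and 11.4 CPM against 2.95, 2.74, 3.59 and 3.32 CPM and a log2 fold change of 1.75 ± 0.10 (SE, n = 4 per group; edgeR adjusted p = 6.25e-10). Socs3 rose by 0.68 and Cish, a target of Stat5 downstream of GM-CSF, by 0.45. Usp18, which shuts down the type I receptor and is counted among the effectors, rose by 7.53.

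**Figure D2:**
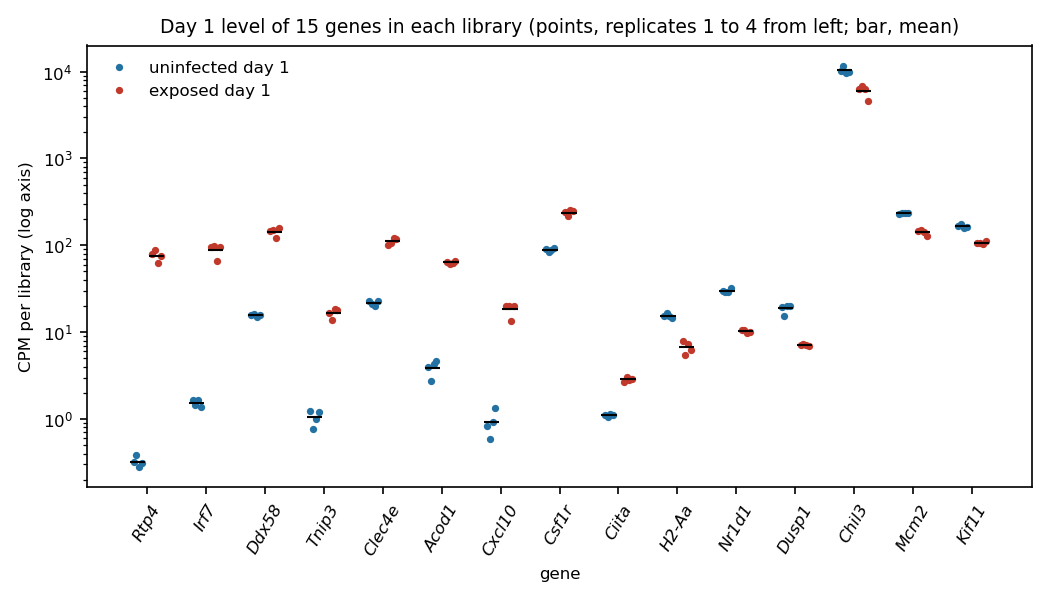
Each point is 1 library (blue uninfected, red exposed, replicates 1 to 4 from the left), with its level in CPM on a log axis, and bars are group means. The groups do not overlap for any of the 15 genes shown, and exposed replicate 3 is the lowest exposed library for Rtp4, Irf7 and Cxcl10.

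Many receptors for microbes rose. Of 22 tested surface and cytosolic pattern receptors 16 were higher and 2 lower, with a median log2 fold change of 0.57. Clec4e, the Mincle receptor for mycobacterial cord factor, had 99.9, 105, 121 and 117 CPM against 23.1, 20.9, 19.8 and 23 CPM, a log2 fold change of 2.35 ± 0.07 (SE, n = 4 per group; edgeR adjusted p = 1.89e-13). Its partner Clec4d rose by 1.26. Tlr2, which binds mycobacterial lipoproteins, had 283, 271, 295 and 298 CPM against 113, 119, 115 and 118 CPM and rose by 1.30 ± 0.05. The muramyl dipeptide sensor Nod2 rose by 1.02 and the formyl peptide receptor Fpr2 by 1.44. Marco rose by 0.57, while the scavenger receptor Cd36 fell, with a log2 fold change of -0.39 ± 0.09. The 2 lower members became 1 without exposed replicate 1, uninfected replicate 1 or uninfected replicate 4. Tlr4, also listed, had 0 counts in all 8 libraries and was not tested.

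Downstream of these receptors the change was smaller. Among 17 adaptors and kinases of Toll-like receptor signalling 6 were higher and 11 were not called, where DESeq2 called 1 lower and 1 was lower at an unadjusted p under 0.05 in edgeR. Myd88, the shared adaptor, rose by 0.58, and Irak3, a kinase-dead brake on the pathway, by 0.81. Leaving out exposed replicate 4 added 2 members called lower, and leaving out uninfected replicate 2 added 1.

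In the NF-kB list several inhibitors and the subunit Relb rose, while the subunits Rela and Rel were not called. Of 20 tested members 15 were higher and 0 lower, with a median of 0.79. With DESeq2, and at an unadjusted p under 0.05 in edgeR, 0 were lower as well. Tnip3, an inhibitor that works with A20, had 16.6, 13.7, 18.5 and 18.2 CPM against 1.24, 0.762, 1.00 and 1.22 CPM and a log2 fold change of 3.99 ± 0.14 (SE, n = 4 per group; edgeR adjusted p = 6.37e-13). Nfkbie rose by 2.26, Tnfaip3 (A20) by 1.85, Relb by 1.39 and Nfkbia by 0.83. Rela, the main activating subunit, had 81.2, 75.5, 76.3 and 75 CPM against 75.1, 76.4, 79.7 and 75.3 CPM, with overlapping groups and a log2 fold change of 0.01 ± 0.05. Rel was not called either, at 0.13 ± 0.08.

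Immediate early factors were mixed, with more falls than rises. Of 21 tested AP-1 and immediate early factors 6 were higher and 9 lower. Fosb had 86.5, 89.6, 51.4 and 84.9 CPM against 198, 136, 183 and 181 CPM, a log2 fold change of -1.16 ± 0.19 (SE, n = 4 per group; edgeR adjusted p = 0.00114), with exposed replicate 3 the lowest. Jun had -0.78 ± 0.06 and Fos -0.37 ± 0.07. The members that rose included Atf3, a stress-induced repressor of cytokine genes, by 0.61, and Batf2, itself an interferon target, by 2.57 ± 0.18. Dusp1, the immediate early phosphatase that switches off MAP kinases, had 7.12, 7.28, 7.20 and 6.88 CPM against 19.5, 15.3, 19.8 and 20.2 CPM and a log2 fold change of -1.39 ± 0.09 (SE, n = 4 per group; edgeR adjusted p = 1.67e-09). Of 9 tested phosphatases of that family 3 were higher and 2 lower, and the 3 became 1 without exposed replicate 1, exposed replicate 3, uninfected replicate 1 or uninfected replicate 2. Trib1, a pseudokinase, fell too, with a log2 fold change of -1.07 ± 0.05.

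Short promoter windows of 2 raised genes outside the interferon lists are printed with the loose NF-kB pattern in capitals, Tnip3 (chr6:65590278-65590397) and Acod1 (chr14:103046892-103047011), both on the plus strand. The pattern is common, so these serve only to show the letters.
Tnip3: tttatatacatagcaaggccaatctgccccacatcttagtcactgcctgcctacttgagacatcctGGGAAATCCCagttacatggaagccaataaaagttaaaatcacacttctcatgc
Acod1: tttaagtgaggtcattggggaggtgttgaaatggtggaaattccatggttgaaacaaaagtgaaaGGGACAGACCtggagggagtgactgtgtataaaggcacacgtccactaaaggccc

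Most tested cytokine genes rose, at low levels for many of them. Of 23 tested cytokines 15 were higher, 0 lower and 8 not called, with a median of 0.70. Il1a had 264, 248, 304 and 346 CPM against 127, 137, 114 and 122 CPM, a log2 fold change of 1.21 ± 0.09 (SE, n = 4 per group; edgeR adjusted p = 6.17e-08). Il6 stayed at or below 2.69 CPM in exposed cells and rose by 2.94 ± 0.22. Tnfsf15, a ligand of the TNF family, rose by 2.90, Il27, a cytokine of the IL-12 family, by 1.76, and Lif by 0.70. Il18, the substrate of caspase-1, rose by 0.60, and Tgfb1 was not called at 0.03 ± 0.06. Csf2, the gene of GM-CSF, had 12, 4, 5 and 8 counts in exposed libraries and 0 in uninfected ones, at least 9.52-fold higher, and was not tested. Il10, also not tested, had 2 counts in the exposed libraries together and 7 in the uninfected ones.

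Among chemokines, 8 of 10 tested CC members were higher and 1 lower, and 2 of 3 CXC members were higher and 0 lower, or 1 lower without exposed replicate 1. Cxcl10, which draws T cells through Cxcr3, had 19.8, 19.8, 13.5 and 19.8 CPM against 0.833, 0.584, 0.926 and 1.33 CPM, a log2 fold change of 4.35 ± 0.20 (SE, n = 4 per group; edgeR adjusted p = 3.85e-09). Ccl5 rose by 2.51, Ccl12 by 1.12 and Ccl2, which draws monocytes, by 0.74. The neutrophil attractant Cxcl2 rose by 0.69. Ccl3 and Ccl4 changed by 0.26 and 0.39. The member that fell was Ccl22, at -0.82 ± 0.25 with all libraries near 1 CPM or under. In the fit of all 16 libraries 3 CC members were called higher in place of 8.

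Of 22 tested cytokine and chemokine receptors 11 were higher and 4 lower. Csf1r, the receptor for M-CSF, had 239.5, 215, 252 and 245 CPM against 89.7, 83.6, 87.6 and 93.1 CPM, a log2 fold change of 1.43 ± 0.06 (SE, n = 4 per group; edgeR adjusted p = 6.01e-12). The GM-CSF receptor chains Csf2rb and Csf2rb2 rose by 0.88 and 1.21, and the TNF receptor Tnfrsf1b by 1.02. Ccrl2, an atypical receptor that presents chemerin, rose by 1.46, and Il6ra fell, with a log2 fold change of -0.53 ± 0.07.

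Antimicrobial genes rose as a group with an exception. Of 19 tested members 13 were higher and 1 lower. Acod1, the enzyme that makes itaconate, had 65, 60.7, 62.8 and 65.1 CPM against 3.99, 2.72, 4.26 and 4.63 CPM, a log2 fold change of 4.04 ± 0.11 (SE, n = 4 per group; edgeR adjusted p = 1.57e-12). Lyz2, lysozyme, had 4415, 4157, 4419 and 3752 CPM against 1779, 1876, 1669.8 and 1645 CPM and rose by 1.26. Hp, haptoglobin, rose by 2.55 and Cybb, the catalytic subunit of the phagocyte oxidase, by 0.70. The member that fell was Lcn2, lipocalin 2, which binds bacterial siderophores, with 1.24, 0.924, 1.26 and 1.35 CPM against 3.59, 3.37, 3.07 and 2.77 CPM and a log2 fold change of -1.43 ± 0.15 (SE, n = 4 per group; edgeR adjusted p = 1.18e-06).

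Of 24 tested inflammasome and cell death genes 13 were higher and 4 lower. Casp4, the caspase that senses lipopolysaccharide, rose by 1.76, the death receptor Fas by 1.69, Mlkl, the executor of necroptosis, by 1.66 and the pore protein Gsdmd by 0.68. Nlrp3 was not called at 0.13 ± 0.07. Among 13 tested complement genes 7 were higher and 3 lower, the components C1s1, Cfb and C4b by 2.42, 2.32 and 1.93 and the receptors C3ar1 and C5ar1 with -0.72 and -0.43. The Fc receptor Fcgr1 rose by 0.63, 1 of 4 higher among 6 of that list, and Fcgrt fell, with a log2 fold change of -0.55 ± 0.07. Of 12 tested prostanoid and leukotriene enzymes 3 were higher and 4 lower, with the prostaglandin E synthase Ptges at 0.70 and the leukotriene enzyme Alox5 at -0.41.

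Both pathways of antigen presentation changed, in different ways. Of 17 tested class I genes 13 were higher and 1 lower, with a median of 0.78. Nlrc5, the regulator of class I genes, had 8.87, 9.60, 5.40 and 11.8 CPM against 0.282, 0.584, 0.592 and 0.498 CPM, a log2 fold change of 4.20 ± 0.27 (SE, n = 4 per group; edgeR adjusted p = 1.36e-07). The peptide transporter Tap1 rose by 2.10, H2-K1 by 1.09 and B2m by 0.61. The 1 lower member was no longer called without uninfected replicate 1, 3 or 4. Among 20 proteasome genes 14 were higher and 1 lower, with the interferon-induced subunit Psmb9 at 1.66 and the activator Psme2 at 1.09.

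Several class II genes and their regulator went in opposite directions. Ciita, the regulator of class II transcription, had 2.65, 3.05, 2.84 and 2.88 CPM against 1.12, 1.07, 1.13 and 1.13 CPM and rose by 1.36 ± 0.14. H2-Aa had 7.86, 5.45, 7.23 and 6.28 CPM against 15.2, 16.5, 15.4 and 14.5 CPM, a log2 fold change of -1.20 ± 0.10 (SE, n = 4 per group; edgeR adjusted p = 5.32e-08). H2-Eb1, H2-Ab1 and the invariant chain Cd74 also fell, with -1.29, -0.77 and -0.54. Of the 12 tested class II genes 4 were higher and 4 lower. The groups did not overlap for 8 of the 12, against 41.5% of all genes tested. Ciita, H2-Aa, H2-Ab1, H2-Eb1 and Cd74 were among those 8.

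Of 15 tested costimulatory and checkpoint ligands 9 were higher and 1 lower. Icosl rose by 1.76, Lgals9 by 1.72 and Cd274 (PD-L1) by 0.40. Vsir, the inhibitory ligand Vista, fell, with 99.7, 95.5, 91.4 and 83.3 CPM against 174, 166, 178 and 179.8 CPM and a log2 fold change of -0.92 ± 0.06.

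**Figure D3:**
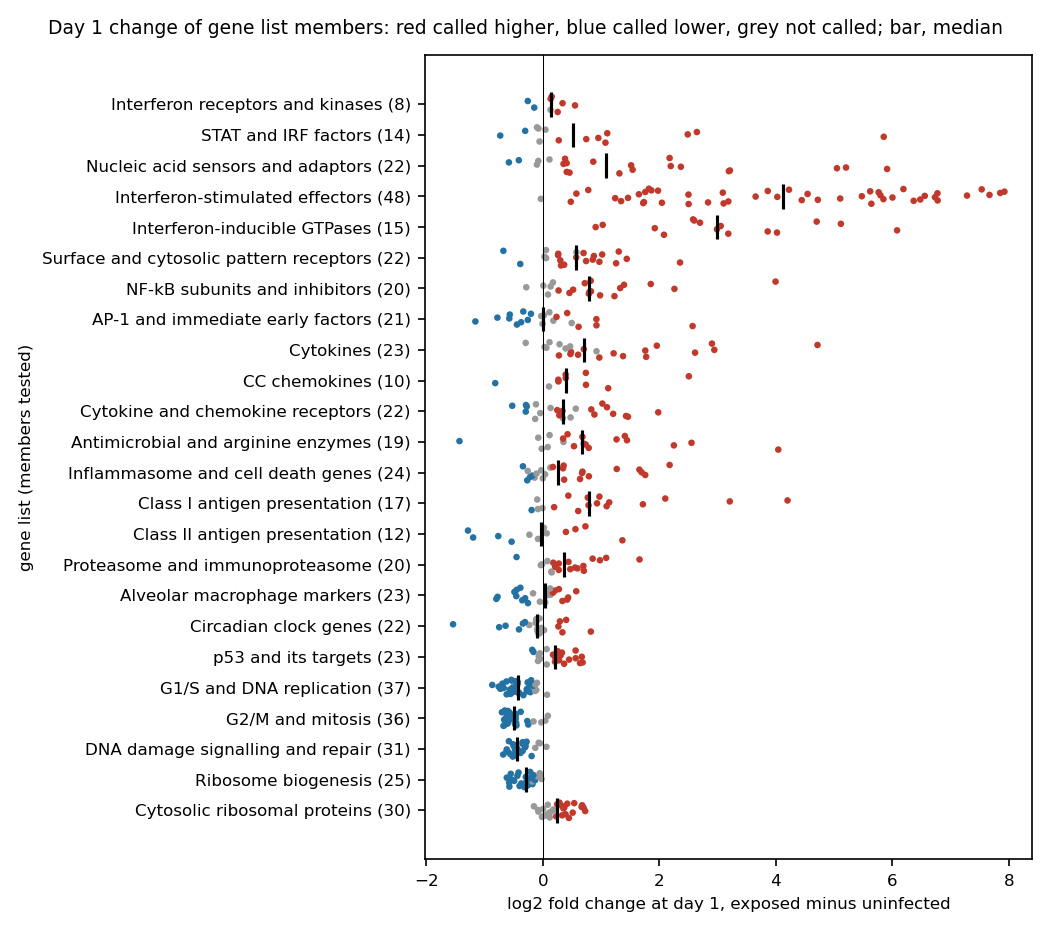
Each point is a tested member of a gene list, placed by its log2 fold change of exposed over uninfected cells at day 1, red where called higher, blue where called lower and grey where not called, and bars are list medians. The effectors and GTPases of the interferon response have medians of 4.12 and 2.99, and 3 lists of proliferation and repair have medians between -0.50 and -0.44.

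Genes of alveolar macrophage identity moved in both directions and by less than 2-fold. Of the 23 tested alveolar macrophage markers 7 were higher and 9 lower, and the 7 became 4 without exposed replicate 1, 2 or 3 or uninfected replicate 4. Chil3 had 6289.8, 6777, 6258 and 4569 CPM against 10179, 11721, 9722 and 9972 CPM, a log2 fold change of -0.80 ± 0.11 (SE, n = 4 per group; edgeR adjusted p = 1.38e-05), with exposed replicate 4 the lowest. Pparg and its target Lpl fell, with -0.45 ± 0.06 and -0.49 ± 0.07, and the ribonucleases Ear1 and Ear2 with -0.78 and -0.46. Fabp4 was not called at 0.13 ± 0.06, and Bhlhe41, a repressor that marks these cells, rose by 0.33. Of 17 macrophage core genes 5 were higher and 3 lower, with 5 lower without exposed replicate 1, 3 or 4. Adgre1 (F4/80) fell, with -0.37, and Spi1 and Cd68 were not called.

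Many defining markers of other cells were at 0, and some listed markers of other cells were expressed. Cd3g and Cd8a of T cells, Epcam and Cldn18 of epithelium, Col1a2 and Lum of fibroblasts, Cldn5 of endothelium, Flt3 and Siglech of dendritic cells and Retnlg of neutrophils had 0 counts in all 8 libraries. Counts of 0 were not confined to such markers, as Tlr4, Trex1 and Ptgs2 of the receptor, sensor and prostanoid lists had 0 too. Whether read assignment had a part in these zeros was not tested. Scgb1a1, of the epithelial list, had 829 counts in exposed and 808 in uninfected libraries. Of 10 T and NK markers 2 were tested, and both were higher. Lck rose by 1.01 to at most 4.93 CPM, and the list summed to 5.00 to 7.45 CPM in exposed and 2.83 to 3.37 CPM in uninfected cells. S100a8, listed as a neutrophil gene, had 776, 789.8, 946 and 1072 CPM against 352, 389, 344 and 298 CPM and rose by 1.37, while its partner S100a9 did not pass 8.01 CPM and Ly6g did not pass 0.15 CPM. Of the 9 neutrophil genes 6 were tested, 1 of them higher and 3 lower, and the list summed to 974 to 1244 CPM in exposed and 525 to 613 CPM in uninfected cells. Cxcr2, a chemokine receptor of that list, had 192, 188, 195 and 164 CPM against 221, 213, 203 and 219 CPM and fell, with -0.21. Clec9a, of the dendritic cell list, had 14.1, 14, 14.1 and 20.0 CPM against 11.2, 10.6, 10.9 and 11.3 CPM and rose by 0.49, with exposed replicate 4 the highest. It was the 1 higher of 2 tested among 7 in its list, which summed to 17.7 to 24.5 CPM in exposed and 14.3 to 15.2 CPM in uninfected cells. Pdgfra, of the fibroblast list, lay between 16.8 and 19.1 CPM in all 8 libraries and was not called. Vwf, an endothelial marker, was present at 327, 349.5, 318 and 303 CPM in exposed cells and was not called, and the epithelial cadherin Cdh1 fell, with -0.78 ± 0.06. Whether any of these changes came from rare other cells was not tested.

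The gene with the largest called fall, among those of at least 5 CPM whose groups did not overlap, was Nr1d1, a nuclear receptor that represses clock and inflammatory genes. It had 10.7, 10.6, 9.83 and 9.94 CPM in exposed and 29.4, 28.9, 29.3 and 32.1 CPM in uninfected libraries, a log2 fold change of -1.54 ± 0.06 (SE, n = 4 per group; edgeR adjusted p = 4.97e-12). Of 22 tested clock genes 5 were higher and 6 lower, close to the share among all genes, and 10 were lower without exposed replicate 4. Nr1d2, its close relative, and the output genes Dbp and Nfil3 fell, with -0.34, -0.75 and -0.64. Arntl and Clock, the activators of the clock, were not called, at -0.08 ± 0.07 and -0.10 ± 0.06. Ciart rose by 0.82, with exposed replicate 4 the highest at 11.8 CPM. Its promoter window (chr3:95882229-95882358, minus strand) holds 3 E-boxes, the site of Arntl and Clock, printed in capitals. The hour of sampling is not given in the sources used here.
Ciart: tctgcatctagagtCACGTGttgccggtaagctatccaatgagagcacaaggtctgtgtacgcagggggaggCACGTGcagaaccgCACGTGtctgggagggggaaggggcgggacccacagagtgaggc

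In CPM the largest rises were in abundant transcripts, at folds from 1.29 for Fth1 to 2.56 for Wfdc17 among the 8 largest. Fth1, ferritin heavy chain, had 26735, 25170.5, 28738 and 25240.5 CPM against 20498, 21873, 20054 and 19413 CPM, a log2 fold change of 0.37 ± 0.08. The chemokine Ccl6 had 16953, 16866, 17839 and 15280.1 CPM against 12702, 13852, 12536 and 11986 CPM and rose by 0.39 ± 0.08. Tmsb4x, an actin-binding thymosin, rose by 0.92 and Wfdc17, a secreted protease inhibitor-like protein, by 1.36. In the other direction Chil3 and Lpl, given with the markers, had the largest falls in CPM of the genes named.

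Other genes with large falls in fold were Cables1, a regulator of cyclin-dependent kinases, with -1.19 ± 0.06, Lrtm2 with -1.45, Gfod1 with -1.14, Cyp4a12b, a cytochrome P450, with -1.14, the inhibitor of differentiation Id3 with -1.14 and the potassium channel Kcnn3 with -1.09.

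Proliferation genes fell together by small amounts. The G1/S list had 32 of its 37 tested members called lower, with a median of -0.44, and the G2/M list 32 of 36, with a median of -0.50. No member of either list was called higher (0). With DESeq2, and at an unadjusted p under 0.05 in edgeR, 0 were higher as well, and the same held for each other list given here with 0 in a direction except TLR adaptors and kinases. Mcm2, part of the replicative helicase, had 147, 149, 143 and 128 CPM against 232, 233, 237 and 238 CPM, a log2 fold change of -0.73 ± 0.06 (SE, n = 4 per group; edgeR adjusted p = 2.25e-08). Pola1, a subunit of DNA polymerase alpha, fell the most in its list, with -0.87 ± 0.05. Kif11, a mitotic motor, and Top2a had -0.63 and -0.66, and Ccne2 and Mad2l1 were not called. In the fit of all 16 libraries 13 and 15 of these genes were called lower.

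Repair genes followed the same course. Of 31 genes of DNA damage signalling and repair 27 were lower and 0 higher, with a median of -0.45, and 17 were lower in the fit of all 16 libraries. Brca1 and Fancd2 had log2 fold changes of -0.68 and -0.60. Lmnb1, a nuclear lamin whose loss is used as a marker of senescence, had 85.3, 83.7, 82.1 and 76.5 CPM against 129, 123, 137 and 131 CPM, a log2 fold change of -0.67 ± 0.05 (SE, n = 4 per group; edgeR adjusted p = 3.66e-08), 1 of 6 lower among 8 tested lamina and HMG genes.

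Of 16 CDK inhibitors, D cyclins and pocket proteins 2 were higher and 9 lower, and the 2 became 1 without exposed replicate 2 or 3 or uninfected replicate 1 or 2. Cdkn1a, which encodes p21, had 277, 269.7, 275 and 242 CPM against 278, 285, 285 and 280.4 CPM and a log2 fold change of -0.08 ± 0.06 (adjusted p = 0.238). Cdkn2c, Ccnd1 and Rbl1 fell, with -0.76, -0.65 and -0.65, and Cdk6 rose by 0.40. Among p53 and its targets 15 of 23 were higher and 2 lower, all under 2-fold, and 7 were higher in the fit of all 16 libraries. Btg2 rose by 0.68, Mdm4 by 0.67 with exposed replicate 4 the highest at 224 CPM, Bbc3 (Puma) by 0.64 and Trp53 by 0.25.

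Metabolic lists changed less. Of 27 glycolysis and hypoxia genes 7 were higher and 8 lower, Slc2a6, a lysosomal sugar transporter, by 1.86 and Hk2 by 0.49, and Pkm with -0.38. Among 21 genes of the citrate cycle and fatty acid oxidation 0 were higher and 13 lower, with Cpt1a at -0.43 and Idh1 at -0.50. Without exposed replicate 4, 2 of these were called higher. Of 24 cholesterol genes 11 were higher and 2 lower, and 4 were lower without uninfected replicate 3. Of 20 LXR targets and fatty acid genes 1 was higher, the cholesterol exporter Abca1 by 0.47, and 8 were lower, with 3 higher without exposed replicate 4.

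Ribosome biogenesis genes fell, 20 of 25 with 0 higher and a median of -0.29, with the polymerase subunit Polr1a at -0.62 and nucleolin (Ncl) at -0.37. Ribosomal proteins themselves went the other way, 16 of 30 higher and 0 lower, with Rpl5 at 0.73, and 1 was lower without exposed replicate 1 or 3. Nuclear genes of oxidative phosphorylation were higher for 13 of 32 and lower for 1, with Cox7b at 0.89. That 1 became 3 without exposed replicate 1 or 3, 2 without uninfected replicate 4 and 0 without uninfected replicate 1 or 3. Of 13 mitochondrially encoded genes 1 was higher and 0 lower. The 1 became 4 without exposed replicate 1, 3 without exposed replicate 2, 2 without uninfected replicate 3 and 0 without exposed replicate 3, exposed replicate 4, uninfected replicate 1 or uninfected replicate 2.

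Short and long genes did not share the same balance of calls, which bears on these lists. Ordered by exonic length in 10 groups, the median log2 fold change went from 0.22 in the shortest (up to 890 bases) to -0.09 in the longest (from 9013 bases). The share called lower went from 3.04% to 38.3% and the share called higher from 22.1% to 15.4%. The Spearman correlation of length and log2 fold change across 15761 genes, which are not independent replicates, was -0.22. Between libraries the shortest and longest groups differed in median log2 deviation by 0.0772 to 0.202 in exposed and by -0.263 to -0.115 in uninfected cells. With each gene set against the median of its length group, the list medians were 0.14 for ribosomal proteins (0.24 before), -0.003 for oxidative phosphorylation (0.11), 0.04 for mitochondrially encoded genes (0.21) and -0.28 for ribosome biogenesis (-0.29). The median of the interferon-stimulated effectors became 4.07. The part of RNA integrity or library preparation in this trend was not tested.

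**Figure D4:**
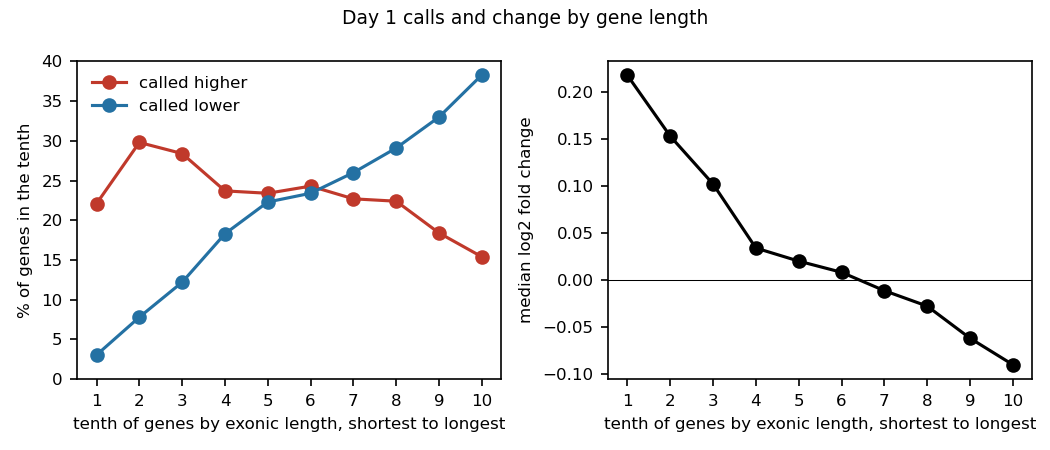
Genes tested are placed in 10 groups of equal size by exonic length, from the shortest to the longest. The left panel gives the percentage of each group called higher (red) and lower (blue), where the share called lower goes from 3.04% to 38.3%, and the right panel the median log2 fold change, which goes from 0.22 to -0.09.

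Stress pathways were mixed. Of 23 genes of the unfolded protein and integrated stress responses 10 were higher and 4 lower. Asns, asparagine synthetase, rose by 1.01 and Slc7a11, the cystine transporter, by 0.90. Xbp1 fell, with -0.32, and the chaperone Hspa5 was not called. Atf4 was called at 0.20, but not without exposed replicate 1, 2 or 3 or uninfected replicate 1, 3 or 4, where it had 0.14 to 0.19 (edgeR adjusted p = 0.0591 to 0.112). Of 13 heat shock genes 8 were lower and 1 higher, Hsp90aa1 with -0.43 and Hspa1a with -0.82. Gclc, for glutathione synthesis, fell, with -0.51. Of 30 lysosome genes 6 were higher and 8 lower and of 25 autophagy genes 7 and 7, near the shares among all genes. Mmp2, a gelatinase, rose by 2.55 ± 0.16, 1 of 4 higher and 3 lower among 11 matrix genes.

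Setting the day 1 effect against that at day 5 asks which parts of the response are early. Of the 3650 genes higher at day 1, 2020 (55.3%) were also called higher at day 5, 1237 (33.9%) were not called and 393 (10.8%) were called lower. Of the 3371 lower at day 1, 2046 (60.7%) were lower at day 5, 981 (29.1%) were not called and 344 (10.2%) were higher. At day 5, in the fit of all 16 libraries, 4918 of 17190 genes (28.6%) were called higher and 4879 (28.4%) lower. The same fit called 2297 genes higher and 1800 lower at day 1, fewer than the 3650 and 3371 of the fit of 8 libraries. The days were thus called in fits of unlike sensitivity, and a gene not called at day 5 need not be an early one. In the fit of all 16 libraries an interaction term tested how the effect differed from day 1 to day 5. It was called in favour of a higher value at day 1 for 3347 genes (19.5%) and of a lower one for 2826 (16.4%). In the sentences that follow, values stand in the order log2 fold change at day 1, log2 fold change at day 5 and their tested difference, day 1 minus day 5.

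Some lists of inflammatory genes had mostly a lower effect at day 1 than at day 5, and others did not. The effect was lower at day 1 for 15 of 20 NF-kB genes, with 0 higher, and for 14 of 23 cytokines, with 3 higher. Of 24 inflammasome and cell death genes 8 were lower in effect at day 1 and 6 higher. Of 21 AP-1 and immediate early factors 4 were lower and 8 higher, and of 12 prostanoid and leukotriene enzymes 2 and 8. For Tnip3 the values were 3.99, 7.53 and -3.55 (interaction adjusted p = 2.51e-08), for Clec4e 2.35, 5.30 and -2.96 and for Hp 2.55, 7.11 and -4.57. H2-M2, a class Ib gene, was among the 8 largest such differences in genes of at least 5 CPM in a group, with 3.39, 12.30 and -8.93. Traf1, an adaptor of TNF receptors, and Mir155hg, the host transcript of miR-155, were also among them, with differences of -7.80 and -7.36 (interaction adjusted p = 0.0237 and 0.00257). The sizes of these differences are uncertain, with SE of 1.29 for H2-M2, 2.54 for Traf1 and 1.66 for Mir155hg. Over the uninfected day 1 libraries H2-M2 had 23 counts and Traf1 and Mir155hg 9 each. Their uninfected day 5 means were 0.0422, 0.0190 and 0.0366 CPM. Class I genes were lower in effect at day 1 for 14 of 17.

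Interferon effectors were divided. Of 48 effectors the difference was not called for 24, was lower at day 1 for 19 and higher for 5, with medians of 4.12 at day 1 and 4.68 at day 5. Rtp4 was among the 5, with 7.85, 6.82 and 1.03 (interaction adjusted p = 0.0358), as was Slfn5, with 7.92, 5.70 and 2.22 (interaction adjusted p = 0.0229). Their mean levels in exposed cells were not higher at day 1. Rtp4 had 76.1 CPM at day 1 and 156 CPM at day 5 in exposed cells, and 0.323 and 1.36 CPM in uninfected cells. Slfn5 had 5.92 and 6.25 CPM in exposed and 0.0206 and 0.118 CPM in uninfected cells. Day 1 means are scaled over 8 libraries and day 5 means over 16, and the days were not tested against each other. Ifi27 rose at day 1 and fell at day 5, with 0.48, -0.32 and 0.79. Socs1 was also higher in effect at day 1, with 1.75, 0.55 and 1.19.

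Genes of division fell less at day 1 than at day 5. The effect was higher, that is less negative, at day 1 for 34 of 37 G1/S genes and 36 of 36 G2/M genes, with medians of -0.44 and -0.50 at day 1 and -1.82 and -2.00 at day 5. Fos had -0.37, -3.04 and 2.66, and the neutrophil collagenase Mmp8 -0.39, -4.62 and 4.21.

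Some genes changed in opposite directions at the 2 days. Lcn2 fell at day 1 and rose at day 5, with -1.43, 4.74 and -6.19 (interaction adjusted p = 9.29e-09). H2-Aa did the same, with -1.20, 0.84 and -2.05, and H2-Eb1 with -1.29, 0.59 and -1.88, whereas their regulator Ciita rose first and fell later, with 1.36, -0.69 and 2.04. In uninfected cells the mean level of H2-Aa was 15.4 CPM at day 1 and 64.4 CPM at day 5, and that of Ciita 1.11 and 15.9 CPM. The day 1 means are scaled over 8 libraries and the day 5 means over 16, and the days were not tested against each other. Srgn, a proteoglycan of secretory granules, had -1.05, 2.02 and -3.07. Cox7a1, a subunit of cytochrome oxidase, Btg2 and Bbc3 rose at day 1 and fell at day 5, with differences of 3.00, 1.77 and 1.37. Nr1d1 was lower in effect at day 1, with -1.54, -0.36 and -1.20, and Per2, a repressor of the clock, had -0.31, 0.99 and -1.30.

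**Figure D5:**
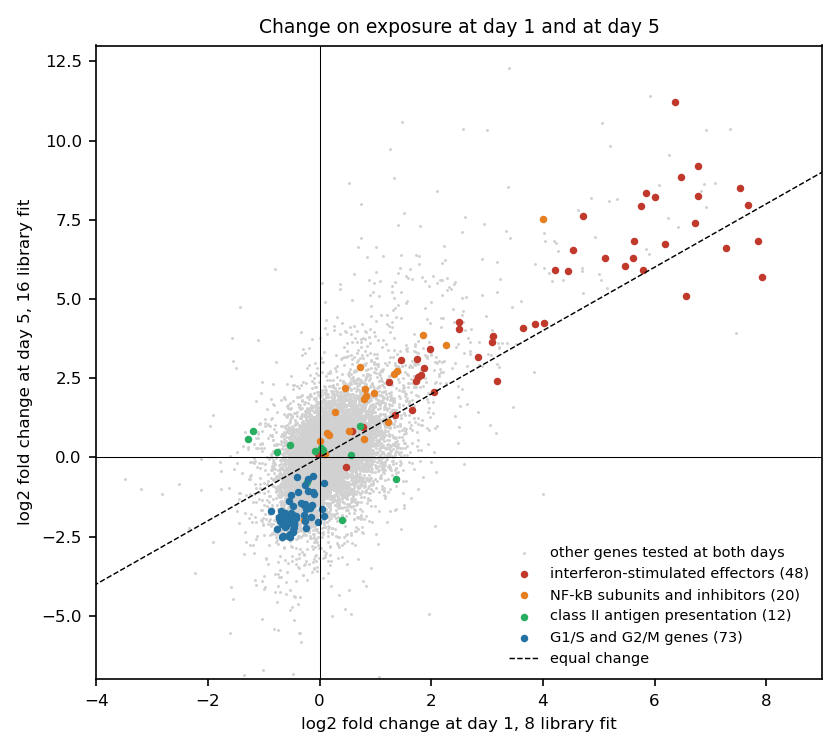
Each point is a gene tested at both days, with its log2 fold change of exposed over uninfected cells at day 1 (fit of 8 libraries) and at day 5 (fit of 16 libraries), and the dashed line marks equal change. The medians of NF-kB genes, 0.79 at day 1 and 1.88 at day 5, lie above the line. Those of G1/S and G2/M genes lie below it and below 0, and class II genes fall on both sides.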

How the data were processed

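RNA-seq of polyadenylated RNA was measured in 16 libraries, of which the 8 of day 1 are the subject. RNA was extracted on a Maxwell instrument, per the labels' protocols. The authors deposited raw gene counts (55359 genes per file). STAR and GRCm39 are named in the submitters' processing notes, with no version, and the file names mark the counts as reverse-strand. The treatment of reads shared between close paralogs, such as Ifit, Apol9 or H2 genes, is not given in the sources used here. Symbols came from GENCODE M21 for 52083 genes, and genes without one held 0.468% of day 1 counts. Counts of replicate libraries differed beyond sampling noise, so each was kept.

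Genes passed filterByExpr by group, libraries were scaled by TMM, and edgeR 4.0.16 (R 4.3.3) fitted a robust quasi-likelihood model to the 8 libraries alone (15858 genes, common biological coefficient of variation 0.0790). A gene was called where its two-sided p, after Benjamini-Hochberg adjustment over the whole table, was under 0.05. CPM are scaled by TMM, and the SE of a log2 fold change is its size over the root of the F statistic. Day 5 values and the interaction came from a fit of all 16 libraries (17190 genes). A floor of 3 counts over a group corresponds to 0.0111 CPM in exposed and 0.0113 CPM in uninfected libraries and covers counting error only. The steps were tested on simulated data. Promoter sequences are those of RefSeq (GRCm38.p6), and exonic lengths had values for 99.4% of tested genes. Figures were drawn with matplotlib 3.10.9.

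The members and lists were chosen with earlier results of these data known. Named genes follow a rule: the 15 largest called changes in each direction with at least 5 CPM and groups that do not overlap, members of lists of up to 25 genes, the 10 smallest and 3 largest p of longer lists, the 8 largest differences in CPM in each direction, the 8 largest interactions in each direction, and Rtp4, Oasl2 and Nr1d1. Some genes that the rule takes are not reported here. Outside it, and chosen after their values were seen, are Isg15, Srgn and Cox7a1. Windows to print were chosen after the matches were seen. Alternatives were DESeq2 1.42.0, RLE size factors, other filters on low counts, the fit of 16 libraries, a block for the replicate number, leaving out each library, and replicates 1 and 2 or 3 and 4 alone. List medians set against genes of like length were added after seeing the data.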

Additional observations from a re-analysis of the deposited data

Results flagged for a closer look

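Single libraries stood far from the other 3 of their group for some of the genes named, by a gap test that chance alone passes in about 1 of 20 groups. The test was run on 202 genes in both groups, so many of the genes listed here could have passed by chance alone. Exposed replicate 4 was such a library in several cases. Its second principal component was -33.7 and its median deviation 0.142. It was low for Myd88 (82.4 CPM), Alox5 (325 CPM), Ear1 (45.4 CPM), Ear2 (232 CPM) and Mmp8 (9.48 CPM), and high for Clec9a (20.0 CPM), Lif (127 CPM), Ciart (11.8 CPM) and Mdm4 (224 CPM). Exposed replicate 3 was low for Irf7 (66.3 CPM), Cxcl10 (13.5 CPM) and Fosb (51.4 CPM). That library was also the lowest exposed one for each of the 15 largest called rises of the naming rule, so such genes are not separate cases. Usp18 had 59.1 CPM there against 84.7 to 92.0 CPM in the other exposed libraries, and Ifit1 78.0 against 112 to 127 CPM. For Clec4e and Tnip3 it was the highest exposed library. The cause was not tested. In exposed replicate 1 genes without a symbol held 1.13% of counts, against 0.377% to 0.506% in the other 3 exposed libraries and 0.262% to 0.346% in the 4 uninfected ones.

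Among uninfected libraries, replicate 1 was high for Ccl5 (0.32 CPM) and H2-M2 (0.128 CPM). Replicate 2 was low for Jun (89.9 CPM) and Dusp1 (15.3 CPM) and high for Ear1 (117 CPM), Mad2l1 (153 CPM) and Xbp1 (318 CPM). Replicate 3 was low for Ddx58 (15 CPM). Replicate 4 was high for Ifnar1 (35.7 CPM), Il27 (1.70 CPM) and Tnfrsf1b (156 CPM).

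The 19 genes below are a selection, from those named, whose effect of exposure differed between day 1 and day 5 by the interaction test. Such a difference was common, called for 3347 of 17190 genes (19.5%) as higher at day 1 and for 2826 (16.4%) as lower. Values are the log2 fold change at day 1 minus that at day 5. The effect was higher at day 1 for Ciita (2.04), Cox7a1 (3.00), Btg2 (1.77), Bbc3 (1.37), Mmp8 (4.21), Socs1 (1.19), Ifi27 (0.79), Irf8 (1.02) and Fos (2.66). It was lower at day 1 for H2-Aa (-2.05), H2-Eb1 (-1.88), Lcn2 (-6.19), Srgn (-3.07), H2-M2 (-8.93), Nr1d1 (-1.20), Per2 (-1.30), Clec4e (-2.96), Tnip3 (-3.55) and Hp (-4.57).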

How the results depend on the processing

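No gene of the text that was called in edgeR changed direction in an alternative, nor did one called only there (0 of 3227 pairs of gene and setting). The 3227 include pairs called in neither fit, for which direction was not compared. Of 202 genes of the text tested 185 were called, 159 of them under every alternative that tested them. The other 26 were lost under at least 1, and 25 of them only in the fit of all 16 libraries or with 2 libraries per group. The counts of called genes moved most in the fit of all 16 libraries, with 2297 higher and 1800 lower, and with replicates 3 and 4 alone, with 2178 and 2183, where each group has 2 libraries. Genes at least 2-fold higher and lower numbered 389 and 38 with at least 1 CPM in 4 libraries, where fewer genes are tested, and 164 were at least 2-fold lower with no filter beyond 1 read. DESeq2 called 3594 higher and 3551 lower, and RLE size factors gave 3558 and 3480. With each library left out, counts ranged from 3016 to 3620 higher and 3124 to 3826 lower, from 642 to 795 and 107 to 136 for changes of at least 2-fold, and from 2945 to 3920 and 2454 to 3450 for an interaction higher and lower at day 1.

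Replicate numbers left no clear pairing in the values. Deviations of same-numbered exposed and uninfected libraries correlated at 0.013, 0.096, -0.050 and 0.025, and those of differently numbered ones at -0.133 to 0.108. With 4 libraries per group this cannot show whether same-numbered samples were handled together. With the replicate block 3838 genes were higher and 3494 lower, 770 and 109 of them at least 2-fold, and the interaction gave 3267 and 2725.

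Windows with the response element pattern among genes at least 2-fold higher made up 18.1% with the last base of the pattern dropped (6.47% of all windows) and 15.6% in windows of 300 bases that include the first bases of the transcript (3.23%). Counts of list members moved by more than 1.5 times for 45 counts in the fit of 16 libraries, 35 with replicates 3 and 4 alone, 12 with replicates 1 and 2 alone, 5 to 9 per library left out and 0 to 4 in other settings. The cause was not tested. The median of the mitochondrially encoded genes went from 0.21 to 0.04 when set against genes of like length. Depth limits the interferon ligands, which have too few counts to test.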

Other observations

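A single gene without a symbol accounted for most of the unusual share in exposed replicate 1, with 882432 counts there and 110853 to 252474 in the other 7 libraries.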
